A study of Mus musculus with 9 samples.

Results

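Genes of the BCL2 family, 10 in all, were followed across 9 RNA libraries of 66cl4 cells, a mouse mammary carcinoma line that the labels call triple negative. They are the guardians Bcl2, Bcl2l1 and Mcl1, the effectors Bax and Bak1, and the BH3-only genes Bbc3, Pmaip1, Bcl2l11, Bid and Bad. They were taken as the rows of the count table whose symbol equals one of these names, which gave 10 of 52208 genes, and 9 of the 10 were among the 16766 genes with enough counts for a test. Pmaip1 was the exception.

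The series asked how a loss of Eya3, a phosphatase and transcriptional coactivator, and an added active NF-kB signal change gene expression in cultured cells. All 9 cultures came from the same line, were transduced with a hairpin, were kept in puromycin at 2.5 ug/ml and were selected on mCherry for a second vector. The scramble group (3 libraries) carried a scrambled hairpin and an empty vector. The knockdown group (3 libraries) carried a hairpin against Eya3 and an empty vector. The add-back group (3 libraries) carried the Eya3 hairpin and IKK2-SE, which the series title describes as a constitutively active NF-kB add-back. In the titles and in the columns alike, the Eya3 hairpin has a single number, and no group has IKK2-SE without an Eya3 hairpin. Loss of Eya3 and any other effect of the hairpin or of deriving that line thus cannot be told apart. Likewise, IKK2-SE and any effect of deriving the add-back cells cannot be told apart. Sample titles number the hairpin KD2 and the table's columns number it KD3, and which number is right is not known here. The labels call the libraries biological replicates but do not say whether they came from separate transductions.

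BCL2 family proteins decide whether the outer membrane of the mitochondrion stays intact. Guardians hold the effectors BAX and BAK in check, BH3-only proteins bind guardians or effectors in response to stress, and active effectors open the membrane so that cytochrome c leaves and caspases are activated. Several of the genes are known transcriptional targets, Bcl2l1 of NF-kB and Bbc3, Pmaip1 and Bax of p53, and many of the proteins are also controlled by phosphorylation or rapid degradation, which RNA counts do not show.

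Library totals ran from 63601403 to 81534534 counts. Values below are CPM, the share of a library's counts on a common scale, given as mean ± SD over 3 libraries. They were scaled by TMM, a normalization that assumes that most genes do not change. In knockdown against scramble 57.5% of tested genes passed the test of a difference, and whether that assumption held was not tested. Eya3 stood at 62.7 CPM in scramble, 25 in knockdown and 26.6 in add-back, in the order the labels give. Ikbkb, the mouse gene for IKK2, stood at 47.8, 44.3 and 48.6 CPM, and whether the table would count reads of the IKK2-SE construct is not stated. Among the mammary epithelial markers, Krt8 was at 628, 1330 and 1070 CPM in the 3 groups, while Krt14 went the other way, at 1.24, 0.305 and 0.12 CPM. The other 4, Krt18, Krt5, Epcam and Cdh1, had group means of at most 0.147, 0.32, 0.0444 and 0.076 CPM. These defining epithelial markers are thus near absent from the counts, and whether the counting could assign reads to them is not known here. Pgr was at 0 in every library, but Esr1 was at 11.8, 16.4 and 20.1 CPM and Erbb2 at 55.4, 63.5 and 63.8 CPM. The 5 blood cell markers summed to at most 0.292 CPM in any library. The 4 macrophage markers summed to 29.2 to 30.4 CPM in scramble, 11.4 to 12.4 in knockdown and 15.3 to 15.8 in add-back, nearly all of it Cd68 and Cd14, with Adgre1 at 0 in 8 of 9 libraries. The 4 fibroblast markers summed to 50.6 to 53.1, 43.2 to 48.5 and 45.1 to 46.8 CPM, most of it Pdgfra, with Thy1 at 0. Within that list Col1a2 moved against the sum, at 0.0682 CPM in scramble, 4.18 in knockdown and 1.66 in add-back. The 3 endothelial markers summed to 4.26 to 5.0, 0.199 to 0.395 and 0.594 to 0.871 CPM, most of it Cdh5. The part of these shifts in the results below was not tested.

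In all, 6 of the 9 tested members rose in knockdown against scramble and none fell, at a Benjamini-Hochberg adjusted p under 0.05 in edgeR's quasi-likelihood test. They were all 3 guardians, both effectors and Bbc3, with rises from 1.11-fold (Mcl1) to 1.57-fold (Bbc3). Over all tested genes 57.5% were called in this comparison, 27.7% higher and 29.9% lower, so a call by itself sets no member apart. That split depends on the scaling, with 48.1% of called genes higher with TMM and 42.1% with library totals in its place. The 6 members were called higher with both. The median log2 fold change of the 9 members was 0.19, beside -0.00146 over all tested genes. The median over all tested genes lies near 0 largely through the TMM scaling, and it shifted by -0.048 with library totals. In the same 6 members the 3 knockdown libraries lay apart from the 3 scramble libraries, which was so for 63.6% of all tested genes. In bulk RNA, a change in the share of cells that express a gene and a change in RNA per cell cannot be told apart.

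Fewer members differed between add-back and knockdown. Bcl2l1 and Bid rose, none fell, and 7 did not pass the test, against a background of 10.4% of tested genes called, 5.61% higher and 4.82% lower. The split of all calls in this comparison depends on the scaling, with 53.8% of called genes higher with TMM and 65.9% higher with library totals, and Bcl2l1 and Bid were called higher with both. The median log2 fold change of the members was 0.06, beside 0.000583 over all tested genes. Bcl2, Bcl2l1 and Bid had libraries that did not overlap between the groups, as did 24.7% of tested genes. Against scramble, the add-back cells had 7 members higher and none lower, namely the 6 of the knockdown comparison and Bid, where 55.8% of tested genes were called, 27% higher and 28.7% lower. The libraries of those 7 did not overlap, as in 61.1% of all tested genes. The 3 comparisons share libraries with each other, so their values are set side by side below and are not independent.

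**Figure D1:**
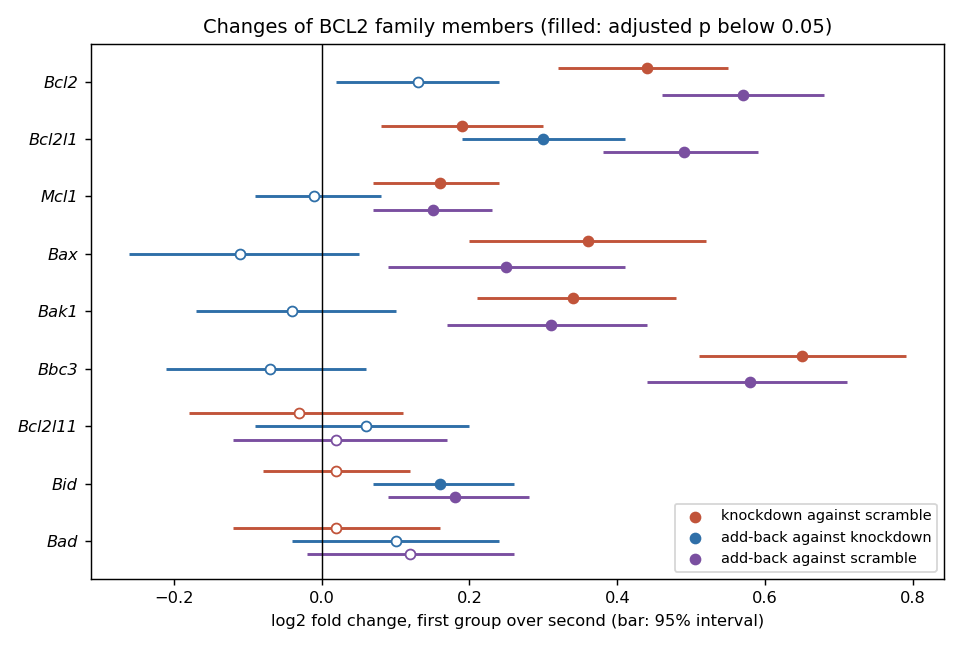
Log2 fold change (x axis) of the 9 tested members in the 3 comparisons; points are edgeR estimates, bars are 95% intervals and filled points passed an adjusted p of 0.05. Bbc3 had the largest rise in knockdown against scramble (0.65), and only Bcl2l1 and Bid are filled in add-back against knockdown.

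Bcl2 (chromosome 1, 106538178 to 106714274, minus strand, GRCm38), the founding guardian, stepped up in the knockdown. Its level was 18.44, 18.56 and 19.31 CPM in the scramble libraries, 25.05, 25.08 and 26.06 in the knockdown libraries, and 29.16, 27.6 and 26.74 in the add-back libraries. Every knockdown library was above every scramble library, and every add-back library was above every knockdown library. The rise in knockdown was 1.35-fold, a log2 fold change of 0.44 ± 0.05 (SE; edgeR adjusted p = 2.51e-06). The further difference with IKK2-SE was 0.13 ± 0.05 on the log2 scale, with a 95% interval of 0.02 to 0.24, and did not pass the test over all genes (edgeR adjusted p = 0.133). Against scramble the add-back cells had 1.48-fold more (edgeR adjusted p = 1.22e-07). A gene on the other strand, D630008O14Rik, shares 6.1% of the exon bases of Bcl2, and the strand setting of the counting is not known here.

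Bcl2l1 (chromosome 2, 152780668 to 152831728, minus strand) encodes BCL-xL, a guardian that is a known NF-kB target. Scramble libraries had 77.91, 75.73 and 81.98 CPM, knockdown libraries 87.48, 85.09 and 95.83, and add-back libraries 105.3, 108.6 and 116.2. The 3 groups formed 3 steps with no overlap. Knockdown was 1.14-fold above scramble (log2 0.19 ± 0.05, edgeR adjusted p = 0.00456). Add-back was 1.23-fold above knockdown (log2 0.3 ± 0.05, edgeR adjusted p = 0.000842), the largest difference of any tested member in that comparison. The total from scramble to add-back was 1.4-fold (log2 0.49, edgeR adjusted p = 4.64e-07). It was thus the sole tested member that passed the test in each of the 3 comparisons.

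Because Bcl2l1 was the guardian that rose with IKK2-SE, the starts of the members in RefSeq (GRCm38.p6) were searched for the kappaB consensus, the sequence bound by NF-kB, and for the p53 half-site consensus, on both strands, from 250 bases before to 50 bases after each start. There were 15 such windows for 9 members. Windows with a kappaB match made up 8.46% of all 32851 mouse windows and those with a p53 half-site match 8.36%. The members had 2 windows with a kappaB match, in Bcl2l1 and Bbc3, and 1 with a p53 half-site match, in Bax. Bcl2l1 and Bbc3 each have more than 1 window, and their other windows held no kappaB match. The sites are shown 5′ to 3′ on the gene's strand with the match in capitals. That of Bcl2l1 is at chr2:152830940-152830967, minus strand, at position -242 from a start and inside a non-coding exon of another Bcl2l1 transcript. That of Bbc3 is at chr7:16309437-16309465, plus strand, at position -137 from a start and within an intron of longer Bbc3 transcripts, and its capitals span 2 overlapping matches. That of Bax is at chr7:45467080-45467109, minus strand, at position -201 from a start and within the gene Gm45808 but in no exon. A match is a run of letters and not evidence of binding, and the lack of one in a window says nothing about the factor.
Bcl2l1 kappaB match: tgtttgtgGGGGGTCTCCagcatacgcc
Bbc3 kappaB matches: ctggctgccGGGAAACCCCCcgcgccgag
Bax p53 match: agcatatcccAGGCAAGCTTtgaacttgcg
In add-back against knockdown, the genes holding a kappaB match had log2 fold changes of 0.3 for Bcl2l1, which passed the test, and -0.07 for Bbc3, which did not; the difference between these genes was not tested.

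Mcl1 (chromosome 3, 95658788 to 95663176, plus strand), a guardian whose protein turns over quickly, was the guardian with the highest level per exon length. It measured 196.4, 189.4 and 200 CPM in scramble, 210.8, 223.4 and 218.4 in knockdown and 207.6, 218.8 and 223.0 in add-back. Both groups with the Eya3 hairpin lay above scramble and overlapped each other. The rise in knockdown was the smallest of those called, at 1.11-fold (log2 0.16 ± 0.04, edgeR adjusted p = 0.00267), where the 40 tested genes around it had a median log2 fold change of 0.47. Add-back against knockdown was -0.01 on the log2 scale, with a 95% interval of -0.09 to 0.08 (edgeR adjusted p = 0.957).

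Bax (chromosome 7, 45461697 to 45466898, minus strand) encodes the effector that moves from the cytosol to the mitochondrion. Scramble libraries had 54.36, 54.32 and 46.49 CPM, knockdown libraries 72.32, 64.46 and 61.93, and add-back libraries 67.0, 61.03 and 56.63. The lowest library with the Eya3 hairpin was above the highest scramble library. The knockdown rise was 1.28-fold (log2 0.36 ± 0.07, edgeR adjusted p = 0.000806), and add-back stood 1.19-fold above scramble (edgeR adjusted p = 0.0101). Add-back and knockdown overlapped, with a log2 difference of -0.11 and a 95% interval of -0.26 to 0.05 (edgeR adjusted p = 0.471). Gm45808, on the same strand, shares 12.2% of the exon bases of Bax, so reads there could belong to either.

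Bak1 (chromosome 17, 27019810 to 27029009, minus strand) encodes the effector that resides on mitochondria. It measured 122.9, 128.9 and 137.4 CPM in scramble, 148.0, 172.7 and 173.4 in knockdown and 148.4, 163.4 and 169.3 in add-back. Groups with the Eya3 hairpin again lay wholly above scramble and overlapped each other. The knockdown rise was 1.27-fold (log2 0.34 ± 0.06, edgeR adjusted p = 0.000277; median of its 40 neighbours 0.32), and that of add-back 1.24-fold (edgeR adjusted p = 0.000806). Add-back against knockdown was -0.04 on the log2 scale (95% interval -0.17 to 0.1, edgeR adjusted p = 0.805). Ggnbp1 on the other strand shares 18.2% and 7.4% of the exon bases of Bak1 in its 2 annotated entries. In each of the 3 groups the library numbered 1 had the highest Bax and the lowest Bak1.

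Bbc3 (chromosome 7, 16308393 to 16318205, plus strand) encodes PUMA, a BH3-only protein that binds all the guardians and is a classic p53 target. Its level was 14.59, 15.76 and 17.03 CPM in scramble, 25.29, 24.13 and 24.95 in knockdown, and 25.07, 23.25 and 22.31 in add-back. The lowest hairpin library exceeded the highest scramble library by more than the whole spread of the scramble group. The knockdown rise of 1.57-fold (log2 0.65 ± 0.06, 95% interval 0.51 to 0.79, edgeR adjusted p = 2.55e-07) was the largest of the members. With IKK2-SE it stayed 1.49-fold above scramble (log2 0.58 ± 0.07, edgeR adjusted p = 1.24e-06). The add-back and knockdown libraries overlapped, with a log2 difference of -0.07 and a 95% interval of -0.21 to 0.06 (edgeR adjusted p = 0.572). Trp53, the gene for p53, was lower in knockdown, at 270 against 311 CPM (log2 -0.21 ± 0.04, edgeR adjusted p = 0.000141). Trp53 lies outside the naming rule and was chosen after its values were seen. Activity of p53 was not measured, and its part in the level of Bbc3 was not tested.

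Bid (chromosome 6, 120891930 to 120916853, minus strand) encodes the BH3-only protein that caspase-8 cleaves to link death receptors to mitochondria. It measured 44.69, 46.18 and 49.36 CPM in scramble, 47.51, 47.16 and 47.5 in knockdown and 54.59, 51.67 and 52.81 in add-back. Scramble and knockdown overlapped, and every add-back library was above both. Knockdown against scramble was 0.02 on the log2 scale (95% interval -0.08 to 0.12, edgeR adjusted p = 0.74). Add-back was 1.12-fold above knockdown (log2 0.16 ± 0.04, edgeR adjusted p = 0.0298) and 1.13-fold above scramble (edgeR adjusted p = 0.00258). The call against knockdown is not firm: without knockdown replicate 1, 2 or 3 the edgeR adjusted p was 0.0614, 0.0932 and 0.0662, and without add-back replicate 1 or 3 it was 0.104 and 0.0612. Bcl2l13 on the opposite strand shares 628 exon bases, 17.7% of those of Bid, and itself fell by 0.25 on the log2 scale in knockdown; its part in the counts of Bid was not tested.

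Bcl2l11 (chromosome 2, 128126038 to 128162547, plus strand) encodes BIM, a BH3-only protein that is controlled by FOXO factors and by ERK. It did not pass the test in any comparison, and measured 26.22, 23.8 and 23.43 CPM in scramble, 25.05, 23.59 and 23.04 in knockdown, and 26.36, 26.01 and 22.23 in add-back. All 3 groups overlapped. The log2 fold change was -0.03 in knockdown against scramble (95% interval -0.18 to 0.11, edgeR adjusted p = 0.703) and 0.06 in add-back against knockdown (-0.09 to 0.2, edgeR adjusted p = 0.709). Against scramble the interval thus leaves room for a fall of the size of the Mcl1 rise.

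Bad (chromosome 19, 6941861 to 6951899, plus strand) encodes a BH3-only protein that survival kinases such as AKT hold inactive by phosphorylation. It measured 17.11, 17.74 and 16.13 CPM in scramble, 16.47, 17.32 and 17.96 in knockdown and 17.29, 19.31 and 18.87 in add-back, with overlap between every pair of groups. No comparison passed the test: knockdown against scramble was 0.02 (edgeR adjusted p = 0.801), add-back 0.1 above knockdown (0.418) and 0.12 above scramble (0.124), all on the log2 scale. The last passed without add-back replicate 1 (edgeR adjusted p = 0.0439). Gpr137 on the other strand shares 20.5% of the exon bases of Bad.

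Pmaip1 (chromosome 18, 66458533 to 66465565, plus strand) encodes NOXA, a BH3-only protein selective for MCL1 and known as a p53 target. It had no count in any of the 9 libraries. A count of 0 allows up to 3 counts, 0.0472 CPM in the shallowest library and 0.00448 CPM over the 668898101 counts of all 9, and these limits cover counting error only. Its neighbours on the chromosome were not empty as a block. Lman1 had 120788 counts and Ccbe1 130290 on one side and Chmp1b 21152 on the other, while Rax and Mc4r, also in this region, had none. Whether the counting could assign reads to Pmaip1 is not known here, so the zero is a property of the table.

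**Figure D2:**
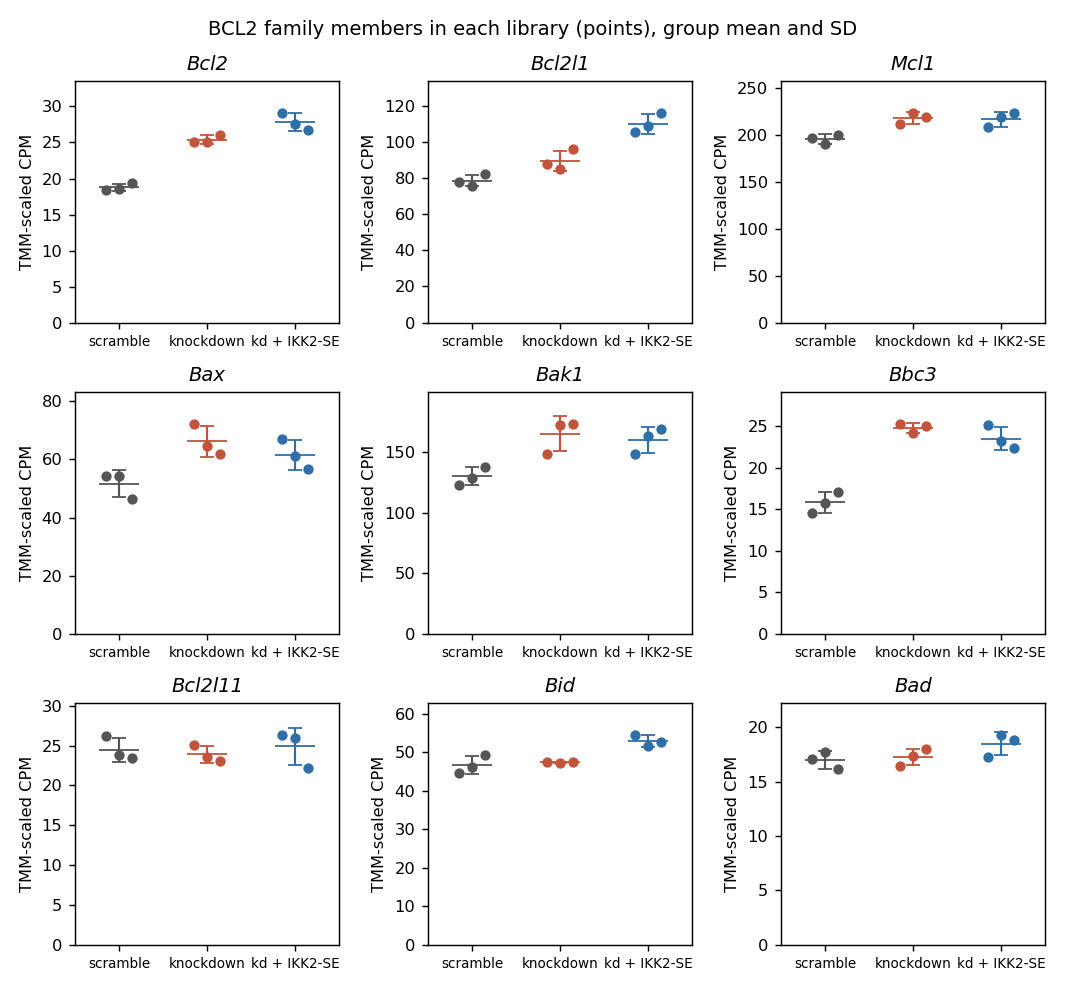
TMM-scaled CPM (y axis, from 0) of the 9 tested members in each library, with one panel per gene, points for libraries and lines for the group mean and SD (n = 3). Bcl2l1 rises over 3 steps, Bax, Bak1 and Bbc3 rise in both hairpin groups, and Bcl2l11 and Bad overlap throughout.

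To compare genes with each other, CPM was divided by the length of the merged exons in kb. In scramble cells Mcl1 led at 57.1 ± 1.57 CPM per kb (SD, n = 3), followed by Bak1 at 53.9 ± 3.02 and Bax at 32.8 ± 2.87. The range of Bak1 overlapped that of Mcl1, so the order of this pair is not settled. Bcl2l1 at 17.1 and Bid at 13.2 came next, then Bbc3 at 7.44 ± 0.575 and Bad at 6.64 ± 0.319, which overlapped. Bcl2l11 at 3.05 and Bcl2 at 2.05 CPM per kb were lowest of the detected members, so the family's namesake had the lowest level per length of the 3 guardian members. With the longest transcript as the length, Bbc3 and Bad changed places in scramble, and Bad led, at 11.1 against 8.71 CPM per kb. Bax kept its place with that length but was closer to Mcl1, at 47.0 against 57.1 in scramble. In knockdown these genes then overlapped, at 65.74, 58.6 and 56.3 for Bax and 61.69, 65.36 and 63.89 for Mcl1.

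In knockdown and add-back cells Bak1 had the highest mean, at 68.4 ± 6.01 and 66.6 ± 4.49 CPM per kb, against 63.6 ± 1.85 and 63.3 ± 2.33 for Mcl1, and the libraries of the pair again overlapped. Bbc3 rose to 11.7 and 11.1 CPM per kb and then lay clear of Bad, at 6.74 and 7.23. With the longest transcript as the length, the add-back libraries of the pair overlapped, at 13.82, 12.82 and 12.3 CPM per kb for Bbc3 and 11.28, 12.59 and 12.31 for Bad. Bcl2 reached 3.04 CPM per kb of merged exons in add-back, where its libraries overlapped those of Bcl2l11 at 3.1. By the longest transcript these libraries did not overlap, at 4.055, 3.839 and 3.719 for Bcl2 and 5.235, 5.164 and 4.414 for Bcl2l11.

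**Figure D3:**
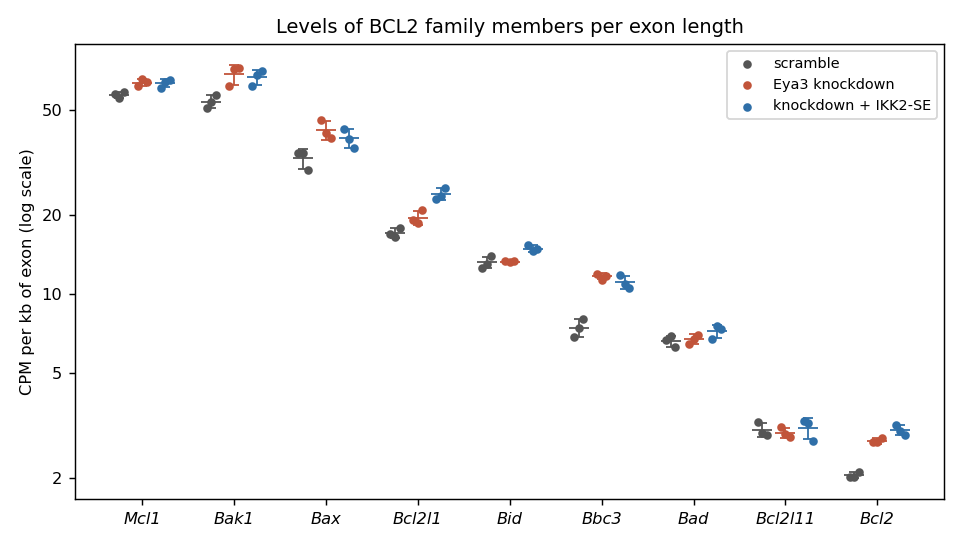
Level per kb of exon (y axis, log scale) of the 9 tested members, ordered by the scramble mean; points are libraries, lines the mean and SD of each group (n = 3). Mcl1 and Bak1 lie at the top, at 57.1 and 53.9 in scramble, and Bcl2 lies lowest in scramble at 2.05.

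Ratios of effector or BH3-only RNA to guardian RNA, formed within each library from the levels per kb, are descriptions with no test. Their sizes, and the shares below, hold for merged exons and were not computed with the longest transcript. Bax to Bcl2 and Bcl2l11 to Mcl1 were planned, while Bax to Bcl2l1 and Bbc3 to Mcl1 were added to the plan. Bax to Bcl2 was 17.1, 17.0 and 14 in scramble, 16.8, 14.9 and 13.8 in knockdown and 13.4, 12.8 and 12.3 in add-back. Scramble and knockdown overlapped and add-back lay below both. Bax to Bcl2l1 was 1.92 ± 0.237 in scramble, 2.16 ± 0.265 in knockdown and 1.63 ± 0.217 in add-back (SD, n = 3). Its scramble libraries overlapped those of both other groups, and every add-back library was below every knockdown library. Bbc3 to Mcl1 was 0.13 ± 0.00933, 0.184 ± 0.0096 and 0.175 ± 0.0171, higher in every hairpin library than in any scramble library. Bcl2l11 to Mcl1 was 0.0534, 0.0468 and 0.049 with overlap. Of the summed level per kb of the members, effectors made up 44.9% in scramble, 47.8% in knockdown and 45.5% in add-back, guardians 39.5%, 37.2% and 38.9%, and BH3-only genes 15.7%, 15% and 15.6%.

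Earlier results of these data showed neighbouring genes shifting together between the groups, so each member was set beside the 40 tested genes around it. In knockdown against scramble the median log2 fold change of the neighbours was 0.47 around Mcl1 and 0.32 around Bak1, above or close to the changes of those members (0.16 and 0.34). Around the other called members it was 0.05 for Bcl2, -0.05 for Bcl2l1, 0.04 for Bax and -0.06 for Bbc3, each below the member's own change. With 20 neighbours the medians were 0.56 around Bak1 and 0.19 around Bax. The part of the neighbourhood in the rises of Mcl1, Bak1 and Bax was not tested. In add-back against knockdown all the medians over 40 neighbours lay between -0.07 and 0.04.

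**Figure D4:**
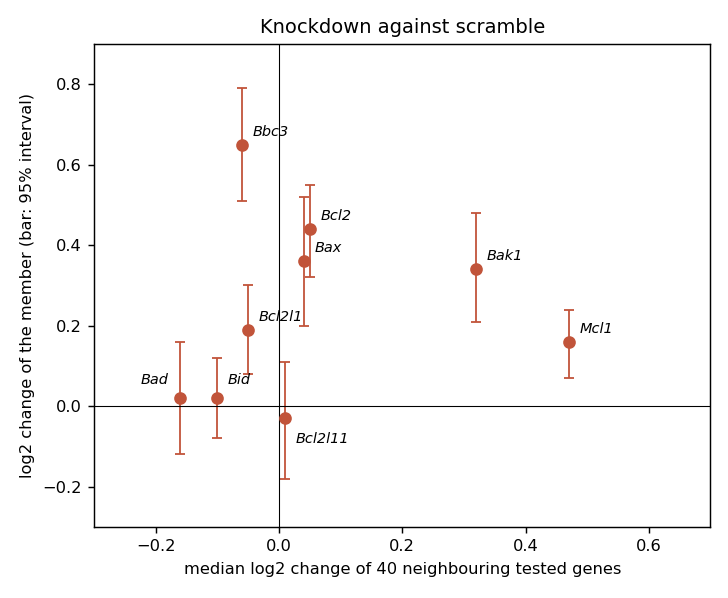
Log2 fold change of each member in knockdown against scramble (y axis, bars 95% interval) against the median log2 fold change of its 40 neighbouring tested genes (x axis). Mcl1 and Bak1 lie to the right at 0.47 and 0.32, while Bbc3, Bcl2, Bax and Bcl2l1 lie near 0 on the x axis.

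Other genes of the pathway were taken from 8 lists with 63 genes, of which 50 were tested. In knockdown against scramble 15 rose, 17 fell and 18 did not pass, with a median log2 fold change of -0.02. In add-back against knockdown 2 rose, 5 fell and 43 did not pass (median 0.02), and in add-back against scramble 15 rose, 16 fell and 19 did not pass (median -0.03). Over all tested genes 57.5%, 10.4% and 55.8% were called in these comparisons, so a count of calls by itself does not set the lists apart. The 13 listed genes left were below the filter on low counts, namely Bcl2l10, Bcl2a1a, Bcl2a1b, Bcl2a1c, Bcl2a1d, Bik, Hrk, Bnipl, Moap1, Endog, Birc3, Fasl and Trp73.

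Among other guardians only Bcl2l2, which encodes BCL-w, was tested, and it rose in knockdown (log2 0.25 ± 0.06, edgeR adjusted p = 0.00341). Of the other effectors and BH3-only genes, Bok, an effector-like gene, fell by 0.31 on the log2 scale in knockdown (edgeR adjusted p = 0.0192). That call was lost without scramble replicate 1 or knockdown replicate 2 or 3, with edgeR adjusted p of 0.0963, 0.11 and 0.0668. Bmf, a BH3-only gene linked to the cytoskeleton, rose from 0.104 ± 0.0458 CPM in scramble to 0.245 ± 0.0547 in knockdown and 0.741 ± 0.226 in add-back (SD, n = 3). Both steps of Bmf passed the test (edgeR adjusted p = 0.0244 and 0.0074), but it rests on 240 counts over all 9 libraries. The knockdown step was lost without scramble replicate 2 or 3 or knockdown replicate 3, with edgeR adjusted p of 0.0714, 0.089 and 0.081. Of 12 tested BCL2-related genes, 3 rose and 2 fell in knockdown, beside 27.7% and 29.9% of all tested genes. The mitochondrial porins Vdac1 and Vdac3 rose by 0.28 and 0.22 on the log2 scale, and Bcl2l13 fell by 0.25. Vdac1 then fell in add-back, from 535 to 425 CPM beside 440 in scramble (log2 -0.33, edgeR adjusted p = 0.00138).

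Genes that act downstream of the mitochondrion were called in both directions, as were tested genes in general. Of 6 tested apoptosome and released factors 2 rose and 3 fell in knockdown. Over all tested genes 27.7% were called higher and 29.9% lower there. Apaf1, the scaffold of the apoptosome, went from 57.0 ± 1.54 CPM in scramble to 39.1 ± 2.56 in knockdown and 39.6 ± 3.1 in add-back (SD, n = 3; knockdown log2 -0.54 ± 0.06, edgeR adjusted p = 6.44e-07). Htra2, a released protease, fell by 0.53 on the log2 scale and Aifm1, a flavoprotein, rose by 0.2. Casp6, a caspase, was at 8.53 CPM in scramble and 4.22 in knockdown (log2 -1.01 ± 0.11, edgeR adjusted p = 8.01e-07). Of 4 tested inhibitors of apoptosis only Xiap, which blocks caspases, passed, and it fell by 0.29, while Birc6 at 0.09 and Birc5 at 0.05 did not.

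In the death receptor branch 1 of 9 tested genes rose and 3 fell in knockdown, beside 27.7% and 29.9% of all tested genes. Fas, the gene for a death receptor, was the one that rose with IKK2-SE, at 2.423, 2.536 and 2.858 CPM in knockdown and 12.28, 10.5 and 13.1 in add-back, beside 1.903, 1.703 and 2.79 in scramble. Scramble and knockdown overlapped and the add-back libraries were all higher. The rise was 4.59-fold (log2 2.2 ± 0.14, edgeR adjusted p = 2.48e-08). Cflar, which encodes the caspase-8 inhibitor cFLIP, rose by 0.28 in knockdown, and Fadd, the receptor adaptor, fell by 0.4. Of 12 tested regulators of the members, 6 rose and 4 fell in knockdown, beside the same 27.7% and 29.9%. Akt1, a survival kinase, rose from 319 ± 7.26 to 440 ± 16.1 CPM (SD, n = 3; log2 0.46 ± 0.04, edgeR adjusted p = 2.04e-08). Mdm2, a ligase for p53 and itself a p53 target, went from 161 to 123 CPM (log2 -0.39), and Ddit3, a stress factor, from 17.2 to 12.1 CPM (log2 -0.51). The 5 list genes that fell with IKK2-SE were Vdac1, Bnip3, Bnip3l, Atf4 and Usp9x, named because they were few and chosen after their values were seen. Of these, Vdac1 passed in each of 18 alternative analyses, and Bnip3, Usp9x, Atf4 and Bnip3l in 13, 11, 9 and 7.

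**Figure D5:**
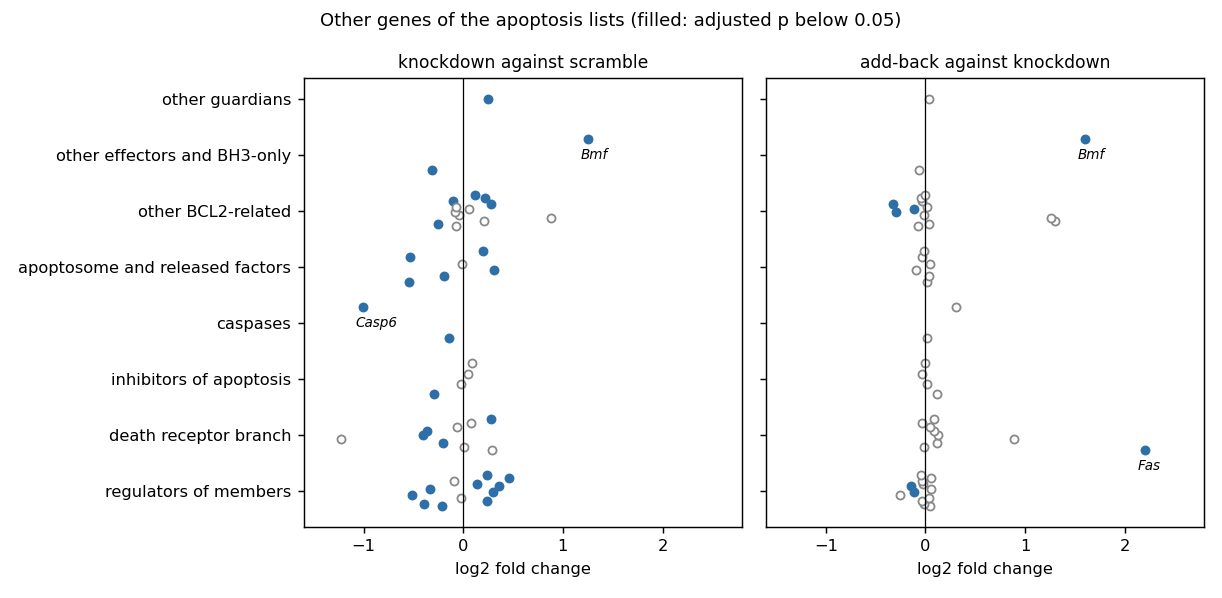
Log2 fold change (x axis) of tested genes of the other lists (y axis, by list). The left panel is knockdown against scramble and the right panel add-back against knockdown. Filled points passed an adjusted p of 0.05. Casp6 lies lowest of the filled points at -1.01 in the left panel, and Bmf and Fas lie highest at 1.6 and 2.2 in the right panel.

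For the 3 members with the smallest adjusted p over the 3 groups, the genes with the most similar profile over the 9 libraries were listed by Pearson correlation of log2 CPM, as a description. Bcl2 was closest to Hbp1 (r = 0.9972) and Smim13 (0.9967), with 729 genes above 0.95. Bbc3 was closest to Dync2h1 (0.9945) and Hspa5 (0.9929), with 899 genes above 0.95. Bcl2l1 was closest to Six4 (0.9808) and Septin6 (0.9781), with 38 above 0.95. The 9 points share 3 groups, so high values are common wherever a gene steps between them.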

How the data were processed

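RNA of 9 cultures was made into mRNA-seq libraries, per the labels' protocols. Raw counts, as whole numbers for each gene symbol, make up the deposited table, with no normalization. Reads went through FastQC, MultiQC and STAR on mm10, per the submitters' processing notes. The counter, the annotation and whether strand was used were not given in the sources used here. Columns were matched to libraries by arm and replicate number. Genes were kept with edgeR's filterByExpr (minimum count 10, total 15), scaled by TMM and fitted by robust quasi-likelihood over all 9 libraries (edgeR 4.0.16, R 4.3.3), with no term but group, which leaves 6 residual degrees of freedom. P-values were adjusted by Benjamini-Hochberg over 16766 genes and called at 0.05. The standard error is the log2 fold change divided by the square root of F. Replicates differed by more than sampling noise. P-values measure the spread between these libraries, which may be technical.

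Positions and exon lengths are from GENCODE on GRCm38, and promoter windows from RefSeq. The procedure was also run on simulated counts in which only a small part of the genes changed, in the knockdown group alone. Its error rates under changes as broad as those seen here were not tested. Alternatives used library totals, median-of-ratios size factors, DESeq2 1.42.0, limma 3.58.1 voom, other filters, other fits, a replicate block and each library left out. Members and lists were chosen with earlier results of these data known. Named were all members, Eya3, Ikbkb, up to 3 genes of each other list with the smallest adjusted p over the 3 groups, list genes below the filter, and the 2 most correlated genes of 3 members; 2 genes that the rule names are not reported here. The lists were guardians, effectors and BH3-only genes, BCL2-related genes, apoptosome factors, caspases, inhibitors of apoptosis, death receptor genes and regulators of members.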

Additional observations from a re-analysis of the deposited data

How the results depend on the processing

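The calls of the 6 members in knockdown against scramble and of the 7 in add-back against scramble held in each of 18 alternatives, with adjusted p up to 0.0301 and 0.0413. In add-back against knockdown Bcl2l1 held in 18 of 18 and Bid in 13, and with single libraries left out the count of called members ran from 1 to 2. Bcl2 did not pass there in any alternative, with adjusted p from 0.0651 to 0.358. Log2 fold changes that turned sign were all small and not called. With library totals they were -0.029 for Bid and -0.026 for Bad in knockdown against scramble and 0.02 for Mcl1 in add-back against knockdown. With a library left out, in knockdown against scramble they were 0.018 for Bcl2l11 (without scramble 1), -0.01 for Bid (scramble 1), and -0.014 (scramble 3) and -0.003 (knockdown 3) for Bad. In add-back against knockdown they were 0.015 (knockdown 2) and 0.024 (add-back 1) for Mcl1, and 0.001 (knockdown 3) and 0.017 (add-back 1) for Bak1. In add-back against scramble they were -0.003 (scramble 3), -0.014 (add-back 1) and -0.003 (add-back 2) for Bcl2l11. The ranges over left-out libraries ran from -0.066 for Bcl2l11 and up to 0.062 for Bid and 0.058 for Bad in knockdown against scramble, from -0.028 for Mcl1 and -0.107 for Bak1 in add-back against knockdown, and up to 0.103 for Bcl2l11 in add-back against scramble. The cause was not tested.

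For the other list genes in add-back against knockdown, 7 calls became 4 with only the 2 groups compared and 3 to 7 with a library left out (3 without scramble 2, knockdown 1 or add-back 3, and 4 without knockdown 2 or add-back 1). With library totals 4 of 6 calls were higher, against 2 of 7. Libraries with equal replicate numbers correlated weakly in their deviations over all tested genes, from -0.0111 to 0.123, and 1 of 9 was above 0.1. Bax fell and Bak1 rose with the replicate number in all 3 groups. A replicate block took the edgeR adjusted p of Bax in knockdown against scramble from 0.000806 to 1.17e-07. That of Bak1 went from 0.000277 to 9.68e-09. Whether replicates of equal number share an effect was not tested for single genes. With the replicate block, the calls in add-back against knockdown went from 1749 to 2678 over all genes and from 7 to 12 over the other list genes, and the called members stayed at 6, 2 and 7 in the 3 comparisons. Depth limits the low genes, such as Bmf, and Pmaip1 at 0.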
